A study of Mus musculus with 4 samples.

Results

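The myosin genes described here are 10 genes of the cardiac and skeletal thick filament: the heavy chain genes Myh6, Myh7 and Myh7b, the light chain genes Myl1, Myl2, Myl3, Myl4 and Myl7, the heart light chain kinase gene Mylk3 and the myosin-binding protein C gene Mybpc3. They were chosen by name, with earlier results of these data known. Their probe sets are those that the array's annotation ties to 1 of these symbols alone. These are 14 of the 45037 probe sets tested, and they cover 10 of the 18193 genes that have such a probe set. A further 2 are annotated to both Myh6 and Myh7, cannot separate those genes, and were left out. The series compared hearts carrying GSK-3alpha S21A, a knock-in that puts alanine in place of serine 21 of this kinase, with wildtype hearts, on 2 single-colour arrays each. All 4 arrays hold untreated heart RNA of C57B6 mice aged 3.6 months per the labels, which name no chamber of the heart and no transgene or Cre. Whether the 2 replicates of a group are 2 animals is not stated, and p-values then measure only the spread between these samples, which may be technical.

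Myosin is the motor of the sarcomere: each molecule pairs 2 heavy chains, which hydrolyse ATP and pull on actin, with an essential and a regulatory light chain on each lever arm. Adult mouse ventricle is built mainly on the fast alpha heavy chain of Myh6, whereas the slower beta chain of Myh7 dominates before birth and is known to return in stressed or hypothyroid rodent hearts. Light chains are also divided by chamber, and phosphorylation of the regulatory light chain tunes the force and speed of contraction.

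The largest difference among the myosin genes was that of the beta chain gene. Myh7 signal was higher in the knock-in hearts by 0.83 on the log2 scale, or 1.78-fold, and the light chain genes Myl1 and Myl4 were higher by 0.46 and 0.42 by their brightest probe sets. The main adult ventricular chains, Myh6, Myl2 and Myl3, differed by 0.10, 0.04 and 0.06 by theirs. Dimmer probe sets of these genes differed by 0.45 for Myh6, 0.09 and 0.15 for Myl3, and −0.09 for Myl4. None of the 14 probe sets passed the test over all probe sets (limma, Benjamini-Hochberg threshold of 0.05), a test that called 3 probe sets in the whole table (0.00666%). The differences of Myh7, Myl1 and Myl4 are therefore the sizes observed on 4 arrays, and not established changes.

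**Figure D1:**
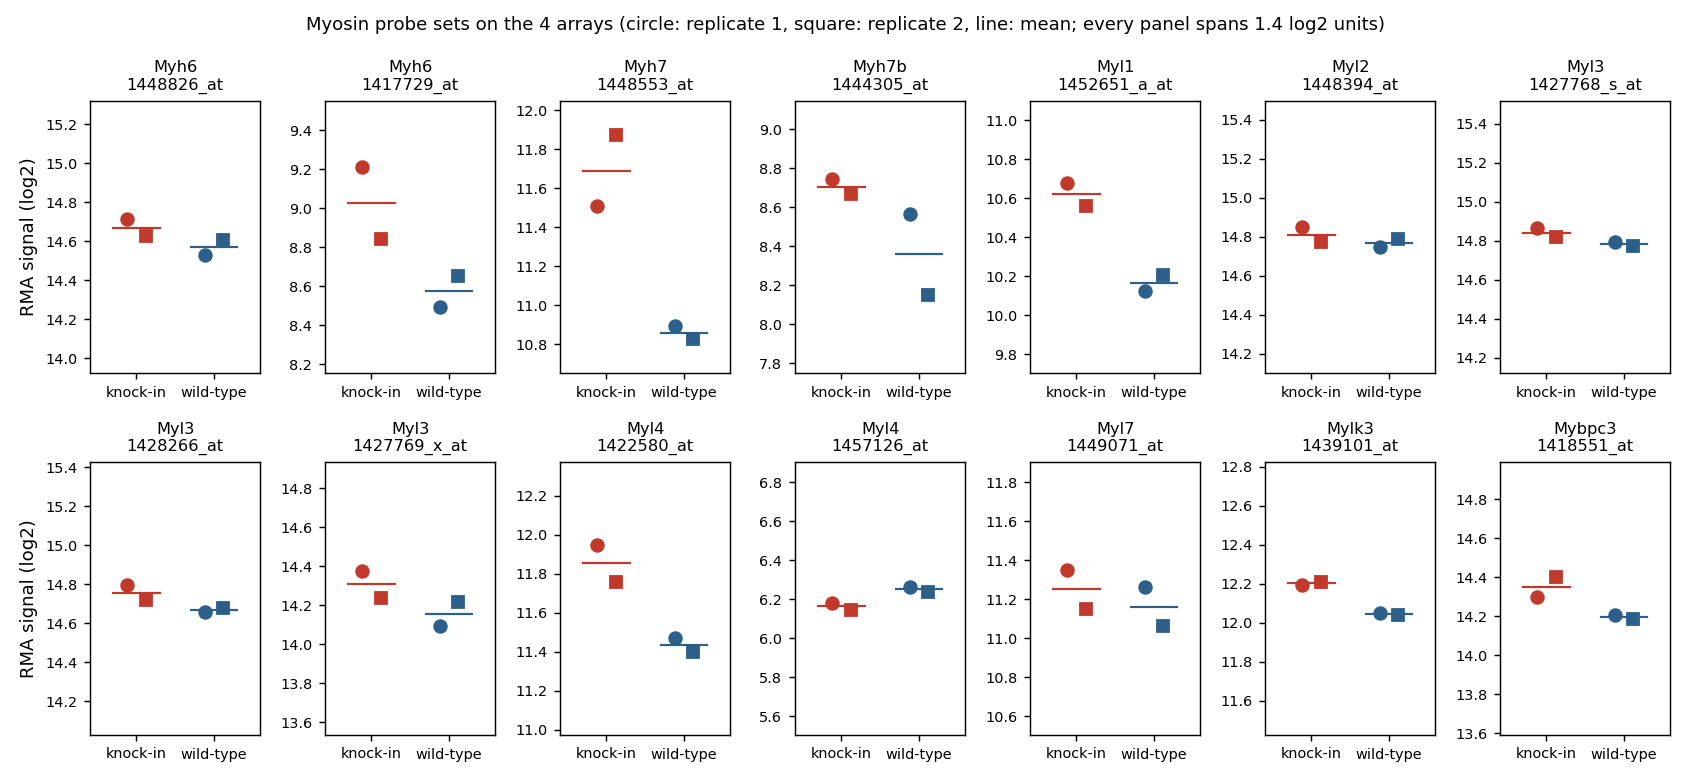
RMA signal (log2) of each of the 14 myosin probe sets on the 4 arrays, knock-in left and wild-type right, with circles for replicate 1, squares for replicate 2 and a line at the group mean; every panel spans the same range of log2 units. The knock-in points of Myh7, at 11.51 and 11.87, lie farthest above their wild-type points, at 10.89 and 10.83.

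Among the heavy chains, Myh7 encodes the beta chain of slow skeletal muscle and of the fetal or stressed rodent ventricle. Its only probe set, 1448553_at, read 11.51 and 11.87 in the knock-in hearts, against 10.89 and 10.83 in the wild-type hearts. Both knock-in arrays lay above both wild-type arrays, and the knock-in replicates were farther apart (SD 0.26, n = 2) than the wild-type ones (SD 0.04, n = 2). The standard error of the 0.83 was 0.15, and its 95% interval before adjustment ran between 0.48 and 1.18. Its unadjusted limma p was 0.000907, the 113th smallest of all probe sets, and its adjusted p was 0.36. Of the 4291 probe sets whose mean signal reached 10, 5 including Myh7 itself differed upward by as much or more. By unadjusted limma p, 12 of them, again including Myh7, had a value as small or smaller. The limit of 10 was not fixed beforehand, and both counts are a description, without a test. The Myh7 difference lay between 0.65 without knock-in replicate 2 and 1.01 without knock-in replicate 1. Myh7 is also the heavy chain of slow skeletal fibres, whose troponin genes Tnnt1 and Tnni1 differed by 0.19 and −0.12. The mean signal of Tnni1, 6.47, was near the array medians, which ran from 6.14 to 6.23.

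Myh6 encodes the alpha chain, the major adult mouse isoform, and its brightest probe set, 1448826_at, read 14.71 and 14.62 in the knock-in hearts, against 14.53 and 14.61 in the wild-type hearts. Knock-in replicate 2 and wild-type replicate 2 were nearly level. The difference was 0.10 with a 95% interval from −0.16 to 0.36 (limma adjusted p = 0.71). The second Myh6 probe set, 1417729_at, gave a different size: it read 9.21 and 8.84 in the knock-in hearts, against 8.49 and 8.65 in the wild-type hearts, a difference of 0.45 (unadjusted p = 0.0221, limma adjusted p = 0.458). Without knock-in replicate 1 that difference was 0.27, so knock-in replicate 1 carried much of it. When both Myh6 probe sets were averaged the gene differed by 0.28. Without knock-in replicate 1 the brightest Myh6 probe set differed by 0.06. The difference of Myh7 exceeded that of Myh6, by their brightest probe sets, by 0.50 on knock-in replicate 1 and by 0.96 on knock-in replicate 2, and by 0.73 between the group means. Against the second Myh6 probe set the excess of Myh7 was 0.01 on knock-in replicate 1, 0.75 on knock-in replicate 2 and 0.38 between the group means, so how far the genes differ depends on the Myh6 probe set. These values are a description, without a test. The coding sequences of Myh6 and Myh7 are close paralogs, and how far each probe set reads the other transcript was not tested.

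Myh7b, an ancient heavy chain gene whose transcript in mammalian heart is known mainly as a microRNA host, read 8.74 and 8.67 in the knock-in hearts, against 8.56 and 8.15 in the wild-type hearts. The groups did not overlap, but wild-type replicate 1 lay closer to the knock-in arrays than to wild-type replicate 2. The difference was 0.35 with a 95% interval from −0.02 to 0.72 (limma adjusted p = 0.473), and it was 0.14 without wild-type replicate 2 and 0.55 without wild-type replicate 1.

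Each of these heavy chain genes carries a microRNA within it, and these are shown because the host transcript is what the array read. The sequences are RefSeq's, on mouse build GRCm38.p6, 5′ to 3′, with the seed (bases 2 to 8) in capitals.
mmu-miR-208b-3p, in Myh7, chr14:54975710-54975731, minus strand: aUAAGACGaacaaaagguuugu
mmu-miR-208a-3p, in Myh6, chr14:54949072-54949093, minus strand: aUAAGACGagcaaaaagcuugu
mmu-miR-499-5p, in Myh7b, chr2:155622893-155622913, plus strand: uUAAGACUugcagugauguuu
The microRNAs of Myh7 and Myh6 share 1 seed, UAAGACG, and that of Myh7b has UAAGACU. No value of these microRNAs was analysed here, and only their hosts have one: 0.83 for Myh7, 0.10 for Myh6 and 0.35 for Myh7b, all as log2 differences.

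The promoters of the 3 genes with the highest differences, and of Myh6 beside its neighbour Myh7, are given next so that their letters can be compared. Each is the stretch of 250 bases before the RefSeq start on GRCm38.p6, in transcript direction. Of genes with 2 listed starts the more upstream was taken. Capitals mark matches, on either strand, to the MCAT motif CATTCC, the TATA motif TATAAA, the GATA motif AGATAA, the CArG box or the MEF2 site.
Myh7, chr14:54994627-54994876, minus strand: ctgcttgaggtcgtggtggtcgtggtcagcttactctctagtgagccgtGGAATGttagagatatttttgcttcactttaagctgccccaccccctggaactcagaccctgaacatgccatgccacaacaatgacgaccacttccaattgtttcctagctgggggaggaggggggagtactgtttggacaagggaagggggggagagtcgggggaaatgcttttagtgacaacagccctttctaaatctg
Myh6, chr14:54966608-54966857, minus strand: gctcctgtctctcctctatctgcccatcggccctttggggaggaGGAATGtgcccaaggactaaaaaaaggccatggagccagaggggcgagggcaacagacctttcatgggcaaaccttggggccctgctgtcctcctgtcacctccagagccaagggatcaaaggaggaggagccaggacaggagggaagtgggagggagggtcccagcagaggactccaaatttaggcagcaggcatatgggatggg
Myl1, chr1:66945057-66945306, minus strand: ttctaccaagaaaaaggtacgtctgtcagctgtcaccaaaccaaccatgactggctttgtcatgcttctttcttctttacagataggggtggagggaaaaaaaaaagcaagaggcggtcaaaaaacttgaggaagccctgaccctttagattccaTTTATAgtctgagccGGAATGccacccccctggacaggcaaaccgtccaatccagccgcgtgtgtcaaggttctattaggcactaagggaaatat
Myl4, chr11:104550413-104550662, plus strand: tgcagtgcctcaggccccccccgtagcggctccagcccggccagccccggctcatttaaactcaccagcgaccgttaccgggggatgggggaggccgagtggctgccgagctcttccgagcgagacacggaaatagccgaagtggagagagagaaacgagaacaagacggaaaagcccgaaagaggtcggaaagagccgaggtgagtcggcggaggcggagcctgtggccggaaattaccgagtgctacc
In both Myh7 and Myh6 the only match in capitals was MCAT, read on the opposite strand as GGAATG, with its first base 201 and 206 bases before the start. Myl1 held an MCAT and a TATA match, which do not overlap, and Myl4 none of the 5. MCAT was matched in 5 of the 10 myosin promoters (Myh7, Myh6, Myl1, Myl3 and Myl7), and in 12.6% of 32536 distinct mouse promoter stretches of this length. The CArG box was matched in 2 of the 10 (Myl3 and Myl7), against 1.48% of all, and GATA in 3 of the 10 (Myh7b, Myl2 and Mylk3), against 9.97%. TATA was matched in 1, Myl1, against 12.3%, and the MEF2 site in 1, Mybpc3, against 2.89%. The E-box CANNTG, searched as well but too common to be put in capitals, was matched in 9 of the 10, all but Myl4, against 66.2%. Genes with and without an MCAT match are found at both small and large differences: Myh7 at 0.83 and Myl3 at 0.06 held it, while Myl4 at 0.42 and Myl2 at 0.04 did not. A match describes letters and is not evidence of binding.

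Regulatory light chains differed little. Myl2, the ventricular regulatory light chain gene, read 14.85 and 14.77 in the knock-in hearts, against 14.75 and 14.79 in the wild-type hearts. The groups overlapped, and the difference was 0.04 with a 95% interval from −0.21 to 0.30 (limma adjusted p = 0.888). Without knock-in replicate 1 it was 0.01. Myl7, the atrial regulatory light chain gene, read 11.35 and 11.15 in the knock-in hearts, against 11.26 and 11.06 in the wild-type hearts. These also overlapped, with a difference of 0.09 and a 95% interval from −0.22 to 0.40 (limma adjusted p = 0.792). The sign for Myl7 turned, to −0.01, without wild-type replicate 2 and again without knock-in replicate 1.

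The essential light chains were unequal. Myl3 encodes the essential light chain of ventricle and slow muscle, and its brightest probe set, 1427768_s_at, read 14.86 and 14.82 in the knock-in hearts, against 14.79 and 14.77 in the wild-type hearts. The groups did not overlap, yet the difference was only 0.06 (95% interval −0.19 to 0.31, limma adjusted p = 0.834). The other Myl3 probe sets differed by 0.09 (1428266_at) and 0.15 (1427769_x_at). Without knock-in replicate 1 the 3 probe sets, in the order given, differed by 0.03, 0.05 and 0.08. The ID types of both 1427768_s_at and 1427769_x_at mark possible cross-hybridisation.

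Myl4, the atrial and embryonic essential light chain gene, read 11.95 and 11.76 in the knock-in hearts, against 11.47 and 11.40 in the wild-type hearts by 1422580_at. Both knock-in arrays were higher, and the difference was 0.42, or 1.34-fold (standard error 0.12, 95% interval 0.14 to 0.70, unadjusted p = 0.0101, limma adjusted p = 0.458). It lay between 0.32 without knock-in replicate 1 and 0.51 without knock-in replicate 2. The second Myl4 probe set, 1457126_at, went the other way: it read 6.18 and 6.14 in the knock-in hearts, against 6.27 and 6.23 in the wild-type hearts, a difference of −0.09 (limma adjusted p = 0.741). Those values lie at the array medians, which were 6.16 and 6.14 on the knock-in arrays and 6.23 and 6.19 on the wild-type arrays, so 1457126_at may hold mostly background. Averaging both Myl4 probe sets gave 0.17.

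Myl4 and Myl7 mark atrial muscle, and other genes listed as atrial markers were mixed. How specific each of these is to the atria in these hearts was not tested. Of 5 such markers measured, 4 were lower and 1 higher (median −0.09), against 46.9% higher among all genes, and 0 passed the limma test. The potassium channel gene Kcna5 differed by −0.42, with 8.13 and 8.73 in the knock-in hearts against 8.85 and 8.85 in the wild-type hearts, and the transcription factor gene Tbx5 by −0.09. Bmp10, whose signals lay below the array medians, differed by −0.24. Sarcolipin (Sln), a calcium pump inhibitor, differed by 0.24, with 10.97 and 10.35 in the knock-in hearts against 10.55 and 10.29 in the wild-type hearts, and like Myl4 it was highest on knock-in replicate 1. Their summed log2 signals were 46.4 and 46.5 in the knock-in hearts and 47.1 and 46.8 in the wild-type hearts. Nppa, the atrial natriuretic peptide gene, which is also induced in stressed ventricle, read 13.13 and 13.02 in the knock-in hearts, against 13.09 and 13.10 in the wild-type hearts. Its difference was only −0.02. In RNA of heart tissue, fewer cells of a type and less RNA per cell cannot be told apart. The labels name no chamber, and the share of atrial tissue on each array was not tested.

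Myl1, the essential light chain gene of fast skeletal muscle, read 10.68 and 10.56 in the knock-in hearts, against 10.12 and 10.20 in the wild-type hearts. Both knock-in arrays were higher by more than the spread within either group. The difference was 0.46, or 1.37-fold (standard error 0.11, 95% interval 0.19 to 0.72, unadjusted p = 0.005, limma adjusted p = 0.458). It lay between 0.40 without knock-in replicate 1 and 0.52 without knock-in replicate 2. Of 9 fast skeletal muscle markers measured, 7 were lower and 2 higher (median −0.23), and 7 had a mean below the lowest array median. Of the 22233 probe sets that dim, 74.3% were lower, so the markers' count is near that background. Their summed log2 signals were 48.9 and 48.4 in the knock-in hearts and 50.9 and 49.3 in the wild-type hearts. The fast regulatory light chain gene Mylpf read 5.90 and 6.08 in the knock-in hearts, against 6.39 and 6.06 in the wild-type hearts.

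Mylk3, the kinase that phosphorylates the ventricular regulatory light chain, had the tightest replicates of the family. It read 12.19 and 12.21 in the knock-in hearts, against 12.05 and 12.04 in the wild-type hearts, with SDs of 0.01 and 0.01 (n = 2 each). The difference of 0.16, an 11.4% higher signal, kept a 95% interval from −0.09 to 0.40 (limma adjusted p = 0.564), because limma draws each probe set's variance toward that of all probe sets. It lay between 0.15 and 0.16 whichever array was left out. Mybpc3, whose protein binds the thick filament and restrains the myosin heads, read 14.30 and 14.40 in the knock-in hearts, against 14.21 and 14.18 in the wild-type hearts. Its difference was also 0.16 (95% interval −0.10 to 0.41, limma adjusted p = 0.573), with no overlap between the groups.

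**Figure D2:**
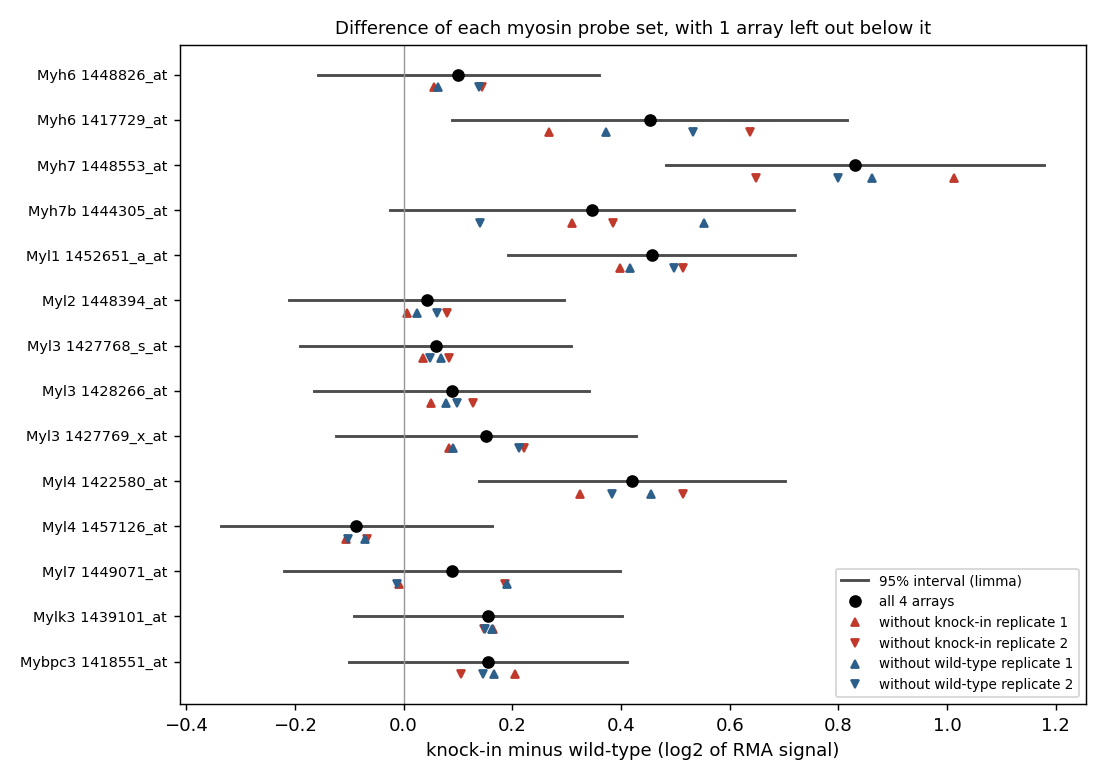
Knock-in minus wild-type log2 difference of each of the 14 probe sets (black point, all 4 arrays) with its 95% limma interval (line), and the difference with 1 array left out in coloured triangles. The intervals of Myh7, Myl1, Myl4 (1422580_at) and Myh6 (1417729_at) lie above 0 before adjustment for the number of probe sets.

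Read as a set, 13 of the 14 probe sets were higher in the knock-in hearts, with a median difference of 0.15, against 41.4% of all probe sets and a median of −0.04. At an unadjusted limma p under 0.05, 4 were higher and 0 lower, or 28.6%, whereas 5.07% of all probe sets were higher and 5.62% lower at that level. In 11 of the 14 both knock-in arrays lay above both wild-type arrays, which was so for 18.5% of all probe sets, and in 1, Myl4 1457126_at, both lay below, against 26.7% of all. The members were chosen with earlier results of these data known, so these shares describe the list and are no independent test. Signal strength moved with these shares. A mean of 8, a limit chosen after the values were seen, was reached by 13 of the 14 myosin probe sets and by 12054 of all. Among those 12054, 68.2% were higher, and the median difference was 0.07. At an unadjusted p under 0.05, 8.49% of them were higher and 1.87% lower, and both knock-in arrays were on top in 36.2% and below in 11.1%. Its part in the myosin counts was not tested.

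The 6 myosin probe sets whose mean reached 14, near the highest signal on any array (15.09), differed by 0.04 to 0.16. All 104 probe sets that bright had differences with a median of 0.03 and a 5th to 95th percentile range from −0.09 to 0.12. How far signals so near the top of the scale can still register a change was not tested.

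**Figure D3:**
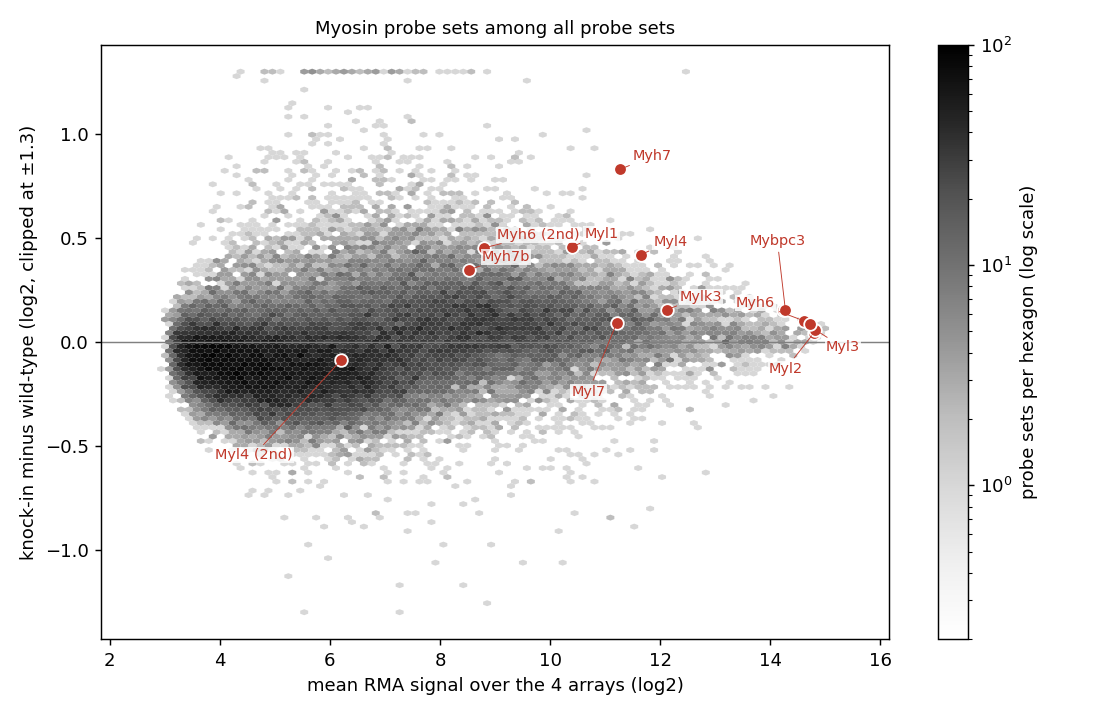
Knock-in minus wild-type log2 difference (vertical, values beyond the axis range drawn at its edge) against mean RMA signal over the 4 arrays (horizontal) for all 45037 probe sets in grey and the 14 myosin probe sets in red; for Myl3 the brightest of its probe sets is labelled, and "2nd" marks the dimmer probe set of Myh6 and Myl4. The median of the grey values was −0.04 over all probe sets, 0.07 at a mean of at least 8 and 0.03 at a mean of at least 14. Myh7 at 0.83 lies above the grey mass at its signal.

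The other genes of the thick filament and its regulation did not pass the test either. Of 33 measured genes on a list of related myosins, thick filament proteins and light chain phosphorylation genes, 20 were higher and 13 lower by their brightest probe sets (median 0.05), against 46.9% higher among all genes. The test called 0 of them, and 0.011% of all genes. At an unadjusted limma p under 0.05, 2 were higher and 0 lower, against 5.45% and 4.76% of all genes. The genes of smallest p among those higher were Mybpc2, the fast myosin-binding protein C gene, at 0.34, Ppp1cb, the catalytic subunit of myosin phosphatase, at 0.48, Myh11, the smooth muscle heavy chain, at 0.27, and Ppp1r12a, the myosin-targeting subunit, at 0.33. Their limma adjusted p lay between 0.458 and 0.481.

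The phosphatase genes were not uniform across probe sets. Ppp1cb read 11.37 and 11.06 in the knock-in hearts, against 10.48 and 10.99 in the wild-type hearts, so wild-type replicate 1 was the low array. The other 3 Ppp1cb probe sets differed by 0.04 to 0.47, and those of Ppp1r12a by −0.22 to 0.17. The other Myh11 probe set differed by −0.15.

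Among the companion genes that were lower, those of smallest p were Myl10, Mylpf, Mybpc1 and Mybph, which differed by −0.22, −0.23, −0.22 and −0.23. All 4 had means near or below the array medians. The other heavy chains split evenly, with 5 of 9 higher (median 0.02), and among the other light chains 3 of 7 were higher (median −0.12). For light chain phosphorylation 6 of 7 genes were higher (median 0.17), and for thick filament proteins and assembly factors 6 of 10 (median 0.09). Titin (Ttn), the filament's molecular ruler, differed by −0.00.

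**Figure D4:**
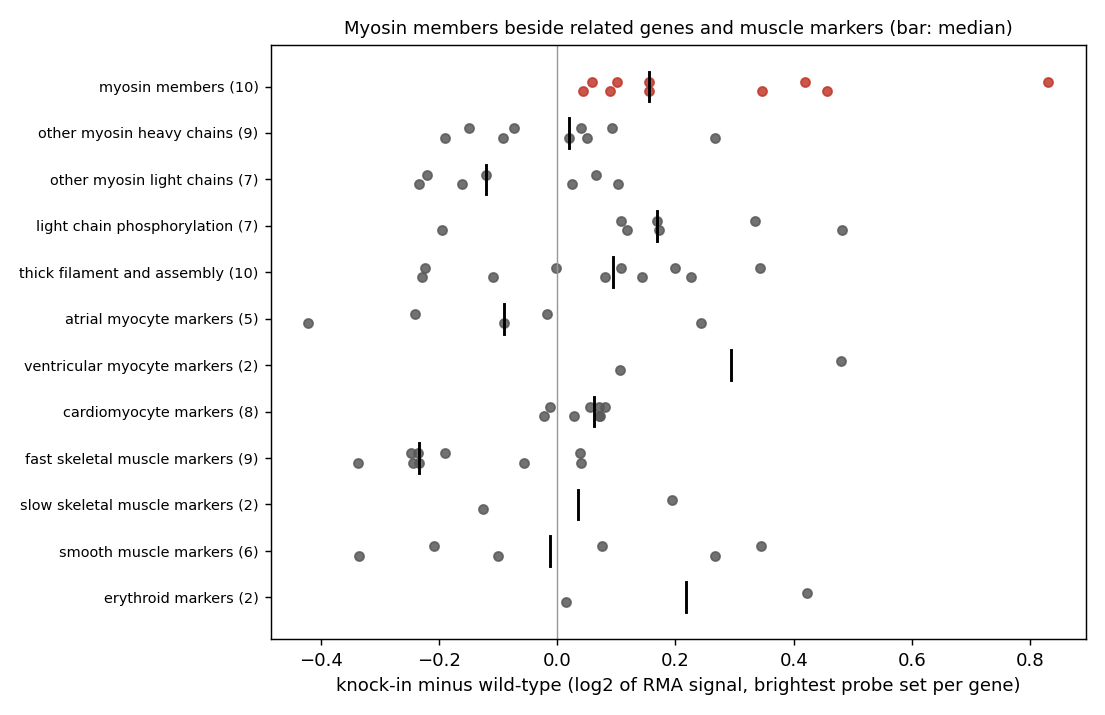
Knock-in minus wild-type log2 difference of each gene's brightest probe set (points) and the median of each list (bar), for the 10 myosin members in red and for related genes and cell markers in grey; the number of measured genes is in brackets. The liver markers, which differed by 0.70 to 3.71, are not drawn. Of the points drawn, the cardiomyocyte markers lie between −0.02 and 0.08, and Myh7, at 0.83, is the highest.

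The label of heart tissue held: 8 of 8 cardiomyocyte markers outside the myosin genes were measured, differed by −0.02 to 0.08, and had a median log2 signal of 14.4 and 14.3 on the knock-in arrays and 14.4 and 14.3 on the wild-type arrays. Gsk3a, the altered gene, read 10.62 and 10.80 in the knock-in hearts, against 11.16 and 11.08 in the wild-type hearts, which is no check of a single-residue change. Liver markers were higher in 9 of 9 measured genes, with a median log2 difference of 2.78 (range 0.70 to 3.71), far larger than any myosin difference, and 8 had an unadjusted p under 0.05. They had summed log2 signals of 78.2 and 66.0 in the knock-in hearts and 53.5 and 48.3 in the wild-type hearts. Both knock-in arrays carried that excess, replicate 1 more than replicate 2. Of the knock-in arrays Myh7 was higher on replicate 2, and Myl1, Myl4 and Myh6 1417729_at on replicate 1. The part of the liver signal in the myosin differences was not tested. Of 6 smooth muscle markers 3 were higher and 3 lower, with summed log2 signals of 57.7 and 60.4 in the knock-in hearts and 59.1 and 58.9 in the wild-type hearts. The ventricular factor genes Irx4 and Hey2 differed by 0.11 and 0.48, the second with signals far below the array medians. The 2 erythroid markers measured, Alas2 and Hba-a1, differed by 0.42 and 0.02 (median 0.22). Signals of Hba-a1 also lay far below the array medians.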

How the data were processed

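Heart RNA was measured on 4 single-colour Affymetrix arrays, 2 knock-in and 2 wild-type. The deposited values are log2 signals, 1 per probe set. The submitters' processing notes name RMA and Affymetrix Expression Console as the authors' tools; the version is not given in the sources used here. RMA corrects background, gives arrays 1 distribution of probe signals and summarises probes, which can remove a shift common to most genes. Medians of the tested probe sets still differed, at 6.16 and 6.14 on the knock-in arrays and 6.23 and 6.19 on the wild-type arrays. The labels state that this normalisation joined the wild-type arrays to these knock-in arrays only.

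Of 45101 probe sets, 64 controls were left out. The array's annotation gave the names: 34945 probe sets had 1 symbol, 932 several and 9160 none listed. Differences, knock-in minus wild-type, came from limma 3.58.1 (lmFit, eBayes; R 4.3.3) over all 45037 probe sets, with 2 residual and 4.54 prior degrees of freedom, after a check on simulated data. Differences are on the scale of log2 RMA signal, and folds are 2 to that power. A gene's brightest probe set has the highest mean over the 4 arrays. The number of arrays limits the precision: standard errors of the 14 probe sets lay between 0.10 and 0.16. Named genes are all members and, from the companion list, up to 4 per direction of smallest p. Ttn, Tnnt1, Tnni1, Irx4, Hey2, Alas2, Hba-a1 and the atrial markers fall outside that rule and were named after their values were seen. The members and lists were chosen with earlier results of these data known. Alternatives covered the variance prior, probe sets that are dim or may cross-hybridise, normalisation, array weights, the replicate block, arrays left out, the threshold and the choice of probe set. Promoter and microRNA sequences are RefSeq's. Tables and plots used Python 3.11.15, pandas 2.3.3, numpy 2.4.6 and matplotlib 3.10.9.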

Additional observations from a re-analysis of the deposited data

How the results depend on the processing

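Of the 15 other limma settings, the averaging of a gene's probe sets was read only for Myh6, Myl3 and Myl4, which have more than 1. No myosin probe set passed the test in any setting in which it was read, or at an adjusted p under 0.1. The lowest limma adjusted p of a myosin gene in those settings was 0.166. Of 196 recomputed myosin differences 3 changed sign: Myl2 to −0.012 after a further quantile normalisation, and Myl7, which lay between −0.011 and 0.19 with 1 array left out, without wild-type replicate 2 (−0.011) and without knock-in replicate 1 (−0.0090). Many of the 196 could not change sign: settings of the variance prior, array weights, replicate block and probe sets tested left each difference as it was. Only the normalisations, the arrays left out and the averaging of a gene's probe sets altered a difference. The median difference of the myosin probe sets, 0.15, was 0.21 with the arrays shifted to 1 median, 0.11 after quantile normalisation and 0.10 after cyclic loess, and between 0.12 and 0.17 with 1 array left out. The count of myosin probe sets at an unadjusted limma p under 0.05, 4, was 3 after quantile normalisation and 3 after cyclic loess. It was 5 with the arrays shifted to 1 median and 5 with a trend in the variance prior. The whole table's count of 3 was 11 with the arrays shifted to 1 median, 5 at an adjusted p under 0.1, and 1 with only probe sets whose mean reached 7. Apart from the looser threshold, the causes were not tested. With 1 array left out a group has 1 array, which is assumed to vary like the other group. The replicate numbers share only a number: deviations of same-numbered arrays correlated at 0.085, and with 2 arrays a group both numbers give this same value. With the replicate number as a block, 4 probe sets passed in the whole table, 0 of them myosin, and 5 myosin probe sets had an unadjusted p under 0.05; the differences themselves do not change.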
